A study of Mus musculus with 2 samples.

Results

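The 34 genes described here mark the endothelium, the cell layer that lines blood and lymphatic vessels, or encode growth factors that act on it. They were chosen by symbol, as 16 pan-endothelial, 5 capillary and tip cell, 3 arterial, 2 venous and 6 lymphatic genes and 2 ligands of the vascular endothelial growth factor (VEGF) family. All 34 symbols were matched to a row of the gene tables, out of 43346 Ensembl genes in all. RNA of intestine was measured in 2 newborn B6NCrl mice of age 0 days, called pup 1 and pup 2, which the labels name as pups of the same pregnancy and whose sex was not collected. No treatment or genetic change is given. Both libraries form 1 group, were made from 10 ng of RNA longer than 200 nucleotides, and are numbered as biological replicates. The labels do not say which segments of the intestine were taken, and no cells were sorted.

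Endothelial cells receive VEGF through the receptor tyrosine kinases Kdr, Flt1 and Flt4. Kdr carries most of the signal of VEGF-A in blood vessels, Flt1 binds the same ligand tightly and also exists as a secreted decoy, and Flt4 binds VEGF-C and is needed for lymphatic growth. The capillaries of intestinal villi are fenestrated and take up water-soluble nutrients, and a central lymphatic vessel of the villus, the lacteal, takes up dietary fat. Arteries, veins, capillaries and lymphatics each add their own genes to a shared endothelial set, under transcription factors of the ETS and SOX families and, in lymphatics, Prox1.

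Levels are the deposited TPM values, a relative transcript abundance that is scaled to transcript length and can be compared between genes, and errors are SDs over the 2 pups (n = 2). Expected counts over Ensembl genes summed to 44568098 in pup 1 and 34797495 in pup 2. With 1 group there is no comparison between conditions and no p-value. A difference between genes is called larger than the spread where its mean exceeds the SD over the pups. Markers of the tissue were present, with the 5 epithelial markers summing to 3927 TPM in pup 1 and the smooth muscle, fibroblast and macrophage lists to 3730, 805 and 195 TPM there. Of the red blood cell genes, 5 of 5 were higher in pup 2, summing to 1711 TPM in pup 1 and 2574 TPM in pup 2.

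Each pup had all 34 genes at 1 TPM or more, a level reached in both by 59.1% of the 21474 protein-coding genes. Their median was 8.39 TPM in pup 1 and 8.71 TPM in pup 2, below the medians of 12.3 and 12.8 TPM over the 12691 protein-coding genes at that level. Their summed level was 489 TPM in pup 1 and 505 TPM in pup 2. The levels ran from Prox1, at 1.11 and 1.18 TPM, to Plvap, at 86.8 and 88.2 TPM. In these bulk samples, fewer cells of a type and less RNA per cell cannot be told apart.

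**Figure D1:**
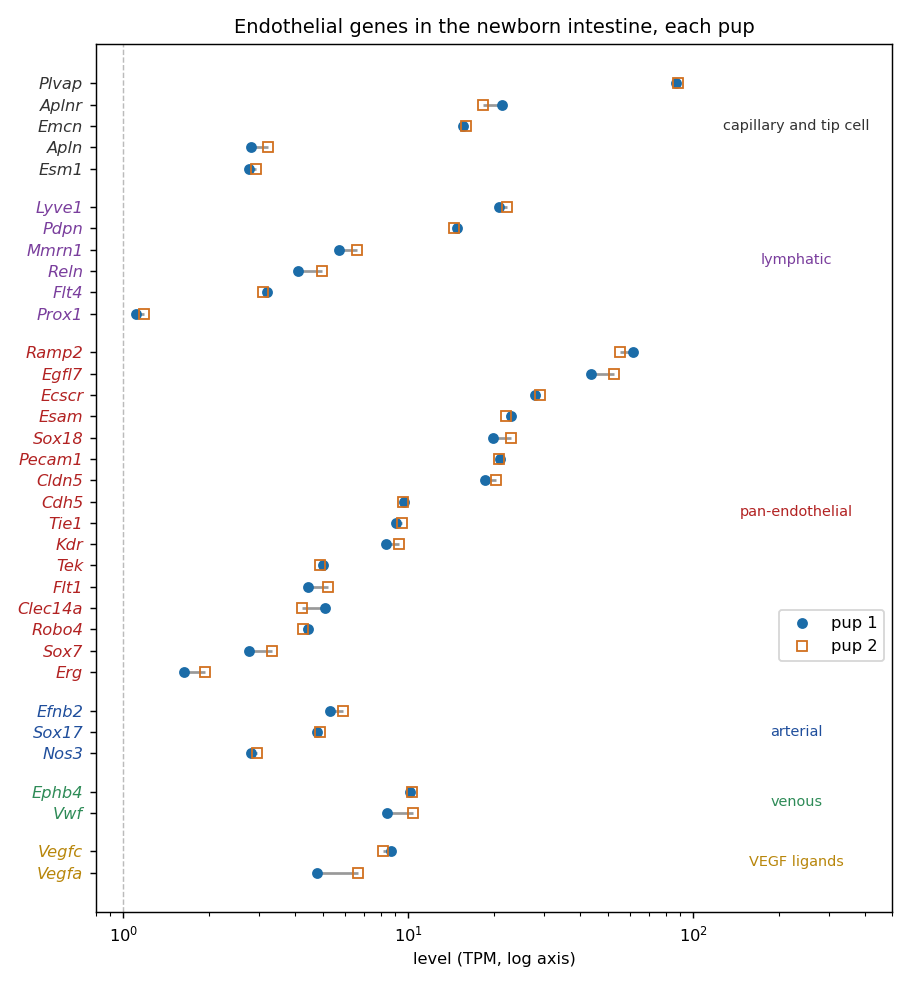
Level of each of the 34 genes in TPM (log axis) in pup 1 (filled circles) and pup 2 (open squares), grouped by class and ordered by mean within a class. The grey line joins the pups and the dashed line marks 1 TPM, and every gene lies to its right, from Prox1 at 1.11 TPM in pup 1 to Plvap at 88.2 TPM in pup 2.

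The 16 pan-endothelial genes cover junctions, receptors, secreted proteins and transcription factors. At the junctions between endothelial cells, Pecam1, an adhesion molecule also carried by platelets and leukocytes, stood at 20.9 ± 0.106 TPM. Cdh5, the endothelial cadherin, stood at 9.62 and 9.61 TPM, and Esam, an adhesion molecule of tight junctions, at 23.0 and 22.0 TPM. Cldn5, the claudin of endothelial tight junctions, stood at 18.6 and 20.4 TPM. The cadherin was thus the lowest of these 4 junction genes in each pup. The platelet marker list summed to 51.3 and 54.0 TPM, most of it from Pf4 at 45.5 and 48.0 TPM, and its part in the levels of Pecam1 and of Vwf was not tested.

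Among receptors, Kdr was at 8.35 TPM in pup 1 and 9.29 TPM in pup 2, and Flt1 at 4.44 and 5.21 TPM. Tie1 and Tek, the paired receptors of the angiopoietin system, stood at 9.07 and 9.51 TPM and at 5.03 and 4.90 TPM. Kdr lay above Flt1 and Tie1 above Tek in each pup. Ramp2, which with Calcrl forms the adrenomedullin receptor, had 61.3 and 55.3 TPM and was the highest pan-endothelial gene over all transcripts. With coding transcripts only, it was above Egfl7 in pup 1, at 41.0 against 33.5 TPM, and below it in pup 2, at 31.7 against 38.5 TPM. These levels include short coding transcripts, whose part in the change of order was not tested. Ramp2-201, of 424 bases, had 11.0 and 5.36 TPM from 129 and 48.0 reads. Egfl7-203, of 521 bases, had 5.96 and 9.22 TPM from 90.4 and 107 reads. Robo4, an endothelial member of the roundabout family, had 4.45 and 4.28 TPM, and Clec14a, a C-type lectin of the endothelial surface, 5.11 and 4.25 TPM. Ecscr, a surface protein of endothelial cells, had 27.9 and 29.1 TPM. The receptors and surface proteins therefore spanned a wide range, with Ramp2 and Ecscr far above Tek, Robo4 and Clec14a.

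Egfl7, a protein that endothelial cells secrete into their matrix, reached 43.7 TPM in pup 1 and 52.5 TPM in pup 2. Among the transcription factors, Sox18 had 19.9 and 22.9 TPM and Sox7 had 2.75 and 3.32 TPM. Erg, the ETS factor that maintains endothelial identity, had 1.63 and 1.93 TPM, from 117 and 118 reads, the fewest of the 34 genes in either pup. Sox7 and Erg were thus the lowest genes of the class, and Sox18 was among its higher ones.

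Egfl7 (chr2:26580014-26593120, plus strand of GRCm38, the assembly named mm10) holds Mir126a on the same strand, at chr2:26591357-26591429. Its mature miR-126a-3p, a microRNA of endothelial cells, is shown for its place inside a member gene, from RefSeq on GRCm38.p6, 5′ to 3′ with the seed (bases 2 to 8) in capitals.
mmu-miR-126a-3p: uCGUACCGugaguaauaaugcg
The row of the Mir126a hairpin held 0 reads in each pup. These libraries were made from RNA longer than 200 nucleotides, so the level of the mature microRNA was not measured.

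The capillary and tip cell genes had the highest median of the 6 classes. Plvap, the protein of the diaphragms that span endothelial fenestrae, had 86.8 TPM in pup 1 and 88.2 TPM in pup 2 from 5980 and 4655 reads, the most of the 34 genes. Emcn, a sialomucin of capillary and venous endothelium, had 15.5 and 15.9 TPM. Aplnr, the apelin receptor, had 21.2 and 18.3 TPM, and Apln, its ligand and a gene of sprouting tip cells, had 2.80 and 3.21 TPM. Esm1, a secreted proteoglycan also made by tip cells, had 2.76 and 2.91 TPM. Within the class both tip cell genes were thus several-fold below the other 3.

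Capillary and tip cell genes exceeded pan-endothelial genes by a log2 difference between class medians of 0.72 ± 0.00053 on the log2(TPM + 0.1) scale (1.65-fold), which was larger than the spread between pups. The medians were 15.5 TPM and 9.35 TPM in pup 1 and 15.9 TPM and 9.56 TPM in pup 2. This difference rests on which 5 and 16 genes make up the classes. With class means in place of medians it was 0.14, and in scaled counts without length normalisation it turned to -0.35.

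The arterial genes were low. Efnb2, the ephrin ligand that marks arterial endothelium, had 5.32 TPM in pup 1 and 5.88 TPM in pup 2. Sox17, a factor of arterial identity that is also expressed outside vessels, had 4.79 and 4.88 TPM. Nos3, the endothelial nitric oxide synthase, had 2.80 and 2.95 TPM. The pups therefore kept the same order of the 3 genes. Of the venous genes, Ephb4, the receptor of Efnb2, had 10.1 and 10.3 TPM, and Vwf, the clotting protein stored in endothelial granules and platelets, had 8.43 and 10.35 TPM.

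The arterial median was below the venous median, by a log2 difference of -0.93 in pup 1 and -1.07 in pup 2, larger than the spread between pups (SD 0.095). When transcripts annotated as not coding were left out, an alternative chosen after seeing the data, the difference was -0.044 and smaller than its spread of 0.069, since most of the Vwf level came from such transcripts. Efnb2 alone was below Ephb4 by a log2 ratio of -0.86 ± 0.080, and coding transcripts held 100% of both genes. No cells were sorted, so this ratio covers all cells of the tissue taken and does not measure arterial against venous vessels.

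The 6 lymphatic genes spanned a wide range. Lyve1, the hyaluronan receptor of lymphatic endothelium and of some macrophages, had 20.7 TPM in pup 1 and 22.1 TPM in pup 2. Pdpn, a mucin-like protein of lymphatic endothelium that mesothelium and stromal cells also make, had 14.8 and 14.5 TPM. Mmrn1, a matrix protein of lymphatic endothelium and platelets, had 5.72 and 6.61 TPM. The 3 highest members of the class are thus also genes of other cell types: the macrophage list summed to 195 and 191 TPM and the mesothelium list to 79.3 and 87.9 TPM, and their part in these levels was not tested.

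Reln, a secreted glycoprotein of lymphatic endothelium and of neurons, had 4.09 TPM in pup 1 and 4.98 TPM in pup 2. Flt4, the VEGF-C receptor, had 3.18 and 3.10 TPM. Prox1, the factor that specifies lymphatic endothelium and is also made by enteroendocrine cells, had 1.11 and 1.18 TPM from 312 and 248 reads (chr1:190118035-190170714, minus strand). It was the lowest of the 34 genes per length, although Erg had fewer reads. The enteroendocrine list, of which 3 of 5 were at 1 TPM or more, summed to 72.9 TPM in pup 1, and the enteric neuron list to 139 TPM.

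Lymphatic genes lay below pan-endothelial genes by a log2 difference between class medians of -0.83 ± 0.15 (0.562-fold), larger than the spread between pups. The median TPM was 4.91 for lymphatic and 9.35 for pan-endothelial genes in pup 1, and 5.80 and 9.56 in pup 2. The difference was -0.43 without length normalisation and -1.10 with coding transcripts only. Lyve1 and Pecam1 did not differ beyond the spread, with a log2 ratio of 0.033 ± 0.075. Without length normalisation the ratio was -0.27 and larger than its spread of 0.070, so this result depends on the transcript lengths used.

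The ligands Vegfa and Vegfc stood at 4.78 and 8.69 TPM in pup 1 and at 6.66 and 8.13 TPM in pup 2. Vegfa was thus below Vegfc in each pup, by a log2 ratio of -0.57 ± 0.40. Vegfa, which many cell types secrete, had a ratio of TPM between pups farther from 1 than any of the other 33 genes. Without length normalisation its ratio to Vegfc was 0.047 and smaller than its spread of 0.36, so the order of the ligands depends on the transcript lengths used.

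Receptors and their relatives kept their order in each pup. Kdr exceeded Flt1 by a log2 ratio of 0.86 ± 0.052 (1.81-fold) and Flt4 by 1.46 ± 0.13 (2.75-fold). Tie1 exceeded Tek by 0.89 ± 0.074. The apelin receptor exceeded its ligand by 2.68 ± 0.29 (6.39-fold). Sox18 exceeded Sox17 by 2.12 ± 0.13. Plvap exceeded the pan-endothelial tight junction gene Cldn5 by 2.16 ± 0.077 (4.48-fold). All of these differences were larger than the spread between pups.

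**Figure D2:**
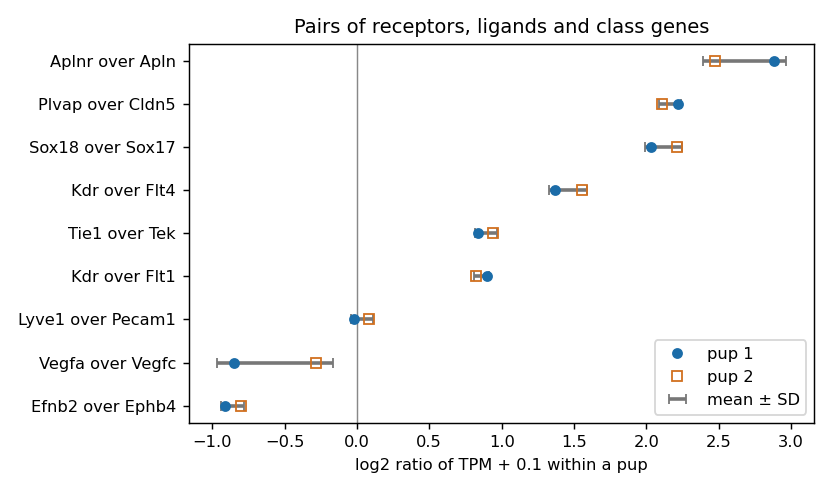
Log2 ratio of TPM + 0.1 between the genes of each pair, within pup 1 (filled circles) and pup 2 (open squares), with the mean ± SD over the pups as a grey bar. Aplnr over Apln had the largest mean ratio of the 9 pairs, at 2.68, and Lyve1 over Pecam1 lay at 0.033 with pups on either side of 0.

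The transcript tables divide each gene's TPM among 149 transcripts of the 34 genes, of which 5 were not in the M21 annotation used here for names. A leading transcript held 90% or more of the gene in both pups for 20 genes, of which 10 have 1 annotated transcript. Protein-coding transcripts held 90% or more of the TPM with a biotype in both pups for 29 genes. The other 5 genes were Egfl7, Flt1, Ramp2, Reln and Vwf. Erg is among the 29 by its matched transcripts only, since unmatched ones held 32.3% of its TPM in pup 1 and 49.7% in pup 2. Such counts were not made over all genes, so whether they are usual is not known. These shares are estimates, since reads that fit several transcripts are divided among them.

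Reln and Vwf were led by transcripts that are not annotated as coding. Reln-205, a processed transcript of 891 bases, held 65.5% of the Reln TPM in pup 1 and 58.3% in pup 2, from 76.3 and 63.5 reads. The coding Reln-207, of 11699 bases, held 24.9% and 28.8%, from 425 and 459 reads. The short transcript therefore had most of the TPM and few of the reads: coding transcripts took 81.4% and 84.4% of the Reln reads. With coding transcripts only, Reln stood at 1.09 TPM in pup 1 and 1.57 TPM in pup 2, close to Prox1.

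Vwf-209, a processed transcript of 456 bases, held 52.2% of the Vwf TPM in pup 1 and 52.4% in pup 2, from 56.4 and 53.3 reads. A Vwf transcript of 8817 bases without a match in M21 held 17.8% and 15.4%, from 469 and 382 reads. By the posterior mean it held 8.99% and 7.32%, while the coding Vwf-203, of 8834 bases, held 7.35% and 7.54% there and 0.01% and 0.83% by the first estimate. By that first estimate most Vwf reads lay on the unmatched long transcript. Counting coding and unmatched transcripts, Vwf had 2.18 TPM in pup 1 and 2.52 TPM in pup 2. For Ramp2, the retained-intron transcript Ramp2-205 held 27.2% and 31.9%, and coding Ramp2-204 held 44.4% and 41.1%. Coding transcripts of Ramp2 summed to 41.0 and 31.7 TPM, those of Egfl7, led by Egfl7-202 at 40.5% and 39.6%, to 33.5 and 38.5 TPM, and those of Flt1 to 3.41 and 4.35 TPM.

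**Figure D3:**
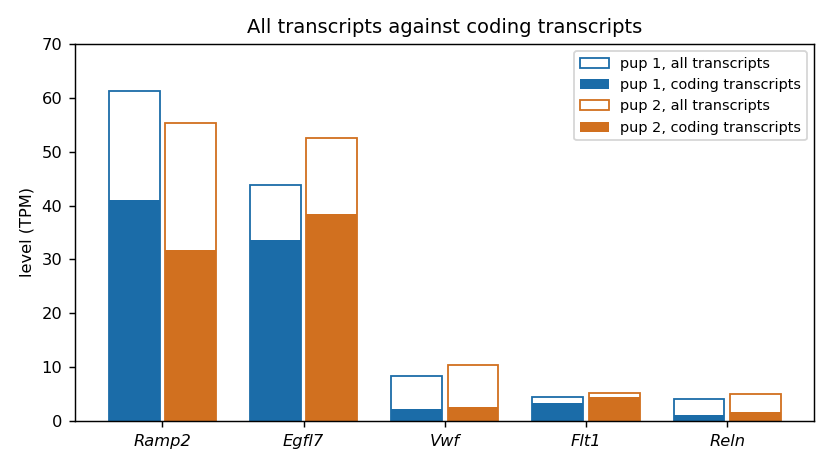
Level in TPM of the 5 genes with a coding share under 90%, as all transcripts (open bars) and as coding transcripts or transcripts without a match in M21 (filled bars), in pup 1 (blue) and pup 2 (orange). The filled part is smallest for Reln, at 1.09 of 4.09 TPM in pup 1, and Vwf, at 2.18 of 8.43 TPM in pup 1.

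The following stretches tell apart the main forms of 4 signalling or adhesion genes, and are shown because the form decides what protein is made. They come from the GENCODE M21 transcripts on GRCm38, 5′ to 3′ on the strand of the gene. Capitals mark the stretch that 1 form has and the other lacks, and lower case marks the 15 bases beside it. The Vegfa exon of 132 bases (chr17:46020991-46021122, minus strand) adds heparin-binding sequence and is in Vegfa-202 but not in Vegfa-201. The Flt1 stretch of 92 bases (chr5:147639133-147639224, minus strand) continues the coding sequence past the exon that the full-length Flt1-202 shares, and is in the secreted form Flt1-203. The Pecam1 exon of 57 bases (chr11:106671742-106671798, minus strand) lies in the part that encodes the cytoplasmic tail and is in Pecam1-202 but not in Pecam1-203. The Tek exon of 153 bases (chr4:94799127-94799279, plus strand) is in Tek-203 but not in Tek-202.
Vegfa: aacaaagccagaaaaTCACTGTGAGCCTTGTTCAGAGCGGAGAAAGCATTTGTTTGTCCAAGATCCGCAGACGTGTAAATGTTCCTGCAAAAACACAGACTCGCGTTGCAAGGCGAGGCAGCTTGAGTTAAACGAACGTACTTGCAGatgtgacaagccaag
Flt1: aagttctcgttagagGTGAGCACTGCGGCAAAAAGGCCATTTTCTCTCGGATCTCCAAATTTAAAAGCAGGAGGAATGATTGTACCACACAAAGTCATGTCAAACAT
Pecam1: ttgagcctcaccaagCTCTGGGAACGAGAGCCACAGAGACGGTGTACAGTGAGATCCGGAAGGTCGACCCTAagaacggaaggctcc
Tek: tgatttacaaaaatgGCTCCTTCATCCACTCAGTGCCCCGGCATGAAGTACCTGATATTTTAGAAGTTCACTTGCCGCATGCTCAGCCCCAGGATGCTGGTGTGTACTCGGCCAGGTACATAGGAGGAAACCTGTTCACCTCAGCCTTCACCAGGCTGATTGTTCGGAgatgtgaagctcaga

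Vegfa-201, the short form without the heparin-binding exon shown above, held 73.1% of the Vegfa TPM in pup 1 and 66.9% in pup 2. Transcripts that hold this exon summed to 15.9% and 4.30% by the deposited estimate and to 18.3% and 12.4% by the deposited posterior mean. In pup 2 the 4.30% was all from Vegfa-205, a retained-intron transcript with 6.12 reads, so no coding transcript known to hold the exon had reads there by the first estimate. Vegfa-202 had 14.7% in pup 1 and was listed at 0 in pup 2, and Vegfa-211 had 11.0% and 26.5%. Vegfa-202 also differs from Vegfa-201 at its start, with a first exon of 1079 bases against 525. The shares of these 2 forms therefore do not isolate the heparin-binding exon, and the part of each difference was not tested. The short form led in each pup under both estimates, and the division among the other forms differed between pups and between estimates. The deposited Vegfa-211 has 3324 bases and its M21 model has 975, so whether the measured model holds the exon is not settled by M21. Vegfa (ENSMUSG00000023951.12) had 482 and 492 reads in all.

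The full-length Flt1-202 held 59.2% of the Flt1 TPM in pup 1 and 53.7% in pup 2. The secreted Flt1-203 held 17.5% and 30.0%, and Flt1-201, a processed transcript of 2049 bases, held 23.3% and 16.4%. The full-length form thus led in each pup, and by TPM the secreted form was the second in pup 2 and the third in pup 1. By reads, Flt1-202 had 642 and 523, Flt1-203 had 173 and 266 and the shorter Flt1-201 had 72.6 and 45.8. The secreted form was therefore the second in each pup by reads. The labels describe total RNA-Seq, and the part of unspliced RNA in the Flt1-203 share was not tested.

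Pecam1-203, without the exon of 57 bases, held 60.4% of the Pecam1 TPM in pup 1 and 65.9% in pup 2, and Pecam1-202, with it, 19.7% and 12.8%. All transcripts with this exon summed to 38.0% and 32.2%, so it was in the minority of Pecam1 transcripts in each pup. The Tek exon of 153 bases was in 77.3% of the Tek TPM in pup 1 and 46.9% in pup 2. Tek-203 held 63.0% in pup 1 and 35.9% in pup 2, and Tek-202 held 22.8% and 53.1%. The leading Tek form therefore differed between the littermates, while the Tek gene level was 5.03 TPM in pup 1 and 4.90 TPM in pup 2.

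Sox17 and Robo4 were divided among several coding forms, and Erg among coding forms and transcripts without a match in M21. Sox17-201 held 32.3% in pup 1 and 30.4% in pup 2, Sox17-204 held 31.5% and 25.2%, and Sox17-208 held 20.9% and 20.2%. Robo4-201 held 53.6% and 49.5%, and Robo4-203 held 34.2% and 33.1%. Erg-202 held 35.9% and 35.8%, and an Erg transcript of 3249 bases without a match in M21 held 24.2% and 23.5%. By reads their order was the other way in each pup, with 26.8 and 24.2 for Erg-202 and 44.8 and 39.4 for the unmatched one. By the posterior mean these Erg transcripts held 15.5% and 14.3%, and 15.2% and 16.7%, so their order in pup 2 was not the same under both estimates. By TPM, the named Sox17 and Robo4 forms kept their order in both pups. By reads, the short Sox17-204, with 40.2 and 25.1, was below Sox17-208, with 67.7 and 50.9, in each pup. Chosen after their values were seen, Sox17-202, at 11.6% and 22.7%, and an unmatched Erg transcript of 3062 bases, at 7.90% and 26.4%, ranked higher in pup 2 than in pup 1, the Erg share resting on 13.8 and 41.6 reads.

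**Figure D4:**
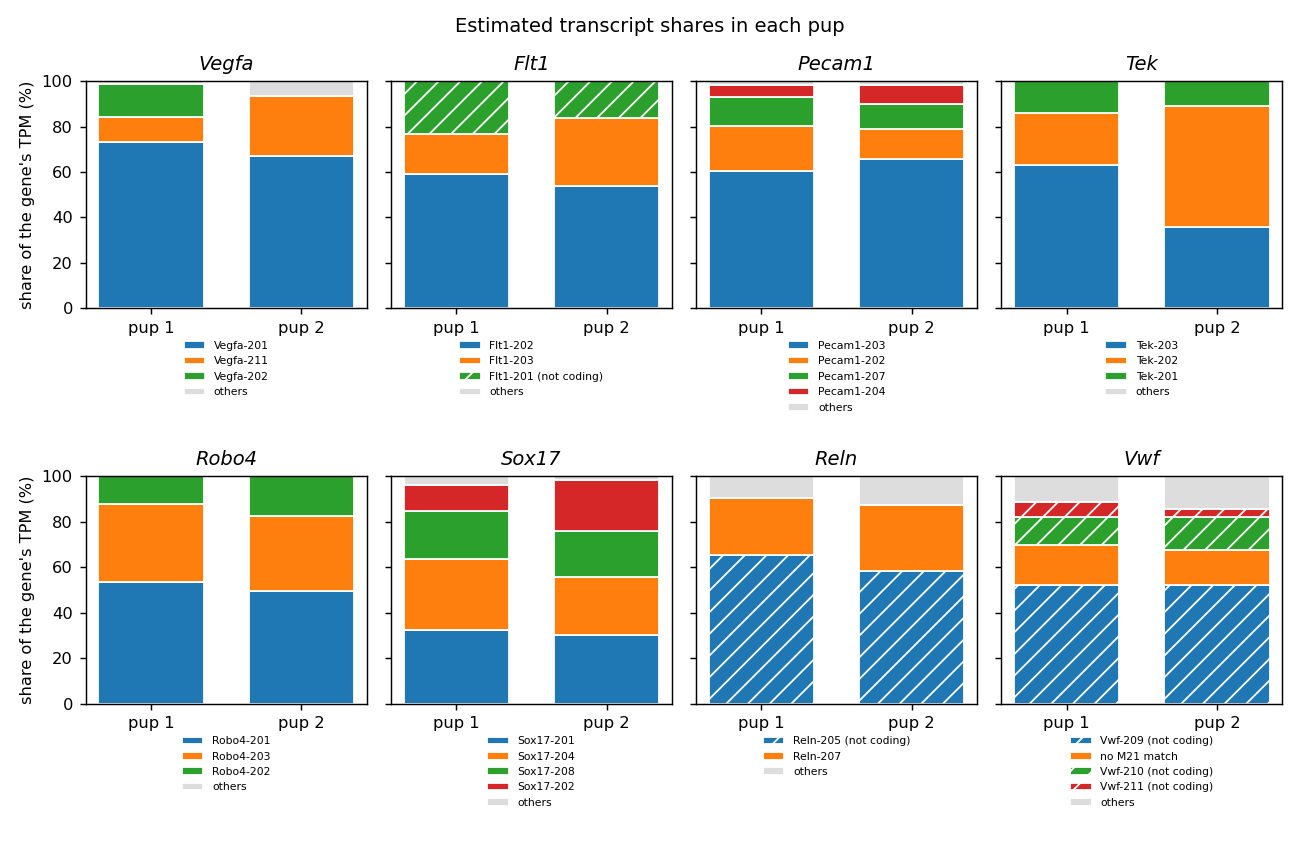
Share of each gene's TPM (percent) held by its transcripts in pup 1 and pup 2, for 8 genes with several transcripts or a noncoding leading transcript. Transcripts with a mean share of 5% or more are coloured, hatching marks those not annotated as coding, and grey is the rest. Tek-203 leads in pup 1 at 63.0% and Tek-202 in pup 2 at 53.1%, and Reln-205 and Vwf-209 lead in both pups.

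The 34 genes were also compared between the littermates, and neither count of differing genes was far from the share over all genes tested. No gene was over 2-fold apart, meaning an exact 95% (Clopper-Pearson) interval of the count ratio wholly above 2 or below 0.5. This rule called 0.796% of the 19088 genes with a summed count of 10 or more. For coding genes that reached 1 TPM in each pup, it called 22 of the 12690 tested. With calls so rare, finding none among 34 genes does not show that they vary less than others. For 9 of the 34 genes the interval did not include 1, against 29.6% of those 19088 genes, a share near that background. Many of the 19088 genes have fewer reads and so wider intervals. For the coding genes at 1 TPM, closer to the 34 in level, it was 4609 of the 12690, and no difference from them was tested. The intervals cover counting error only, since reads are not independent molecules, and the ratios describe these libraries.

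Clec14a and Aplnr had the highest ratios of pup 1 over pup 2. Clec14a had 816 reads in pup 1 and 520 in pup 2, a scaled ratio of 1.26 (1.13 to 1.41), and Aplnr had 2278 and 1455 reads, a ratio of 1.26 (1.17 to 1.34). Ramp2 at 1.13 and Esam at 1.10 were the other genes whose interval lay wholly above 1, and with total counts in place of TMM scaling the interval of Esam included 1 (0.991 to 1.17). Reln, at 0.756 (0.672 to 0.850), and Vegfa, at 0.785 (0.691 to 0.892), had the lowest ratios, and the intervals of Flt1 at 0.852, Sox18 at 0.907 and Egfl7 at 0.916 also lay wholly below 1. The red blood cell genes lay on the same side, at 0.655 to 0.772, and their part in these ratios was not tested. Lymphatic Reln was low while Lyve1, at 0.979, and Prox1, at 1.01, were not.

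**Figure D5:**
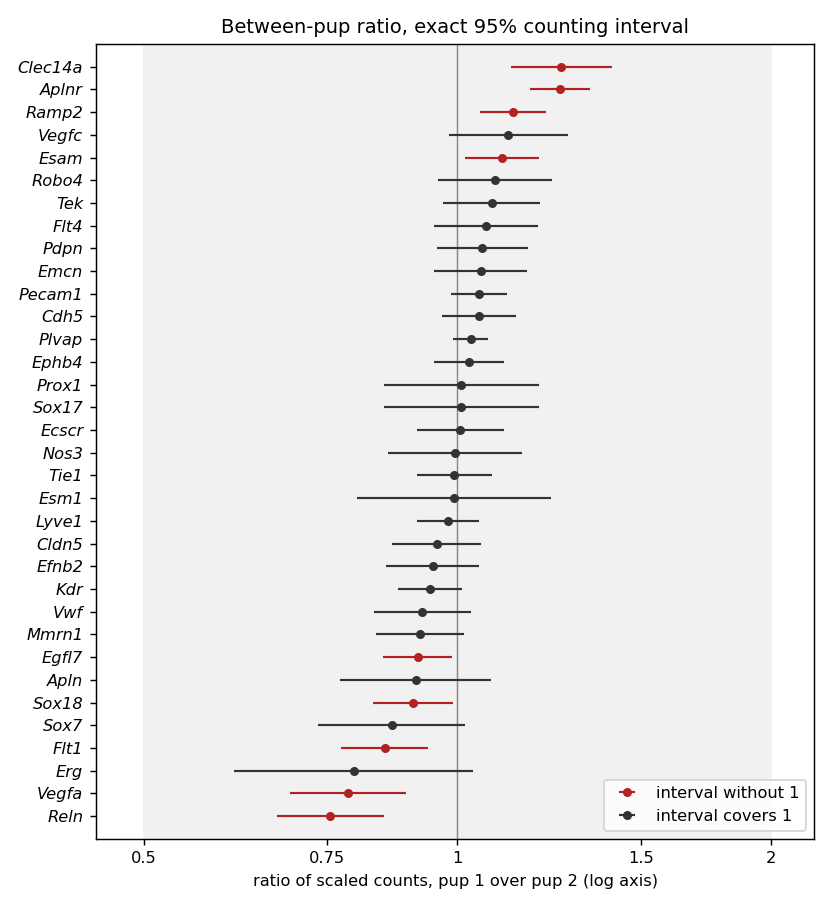
Ratio of scaled counts, pup 1 over pup 2 (log axis), for each of the 34 genes with its exact 95% counting interval. Red marks the 9 genes whose interval does not include 1, from Reln at 0.756 to Clec14a at 1.26, and the grey band runs from 0.5 to 2 and holds every interval.

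The partners of these genes were read from 7 further lists with 60 measured genes. Of these, 49 reached 1 TPM in each pup, against 59.1% of protein-coding genes, and none was over 2-fold apart by the rule above, against 0.796% of all genes tested. An interval without 1 was found for 16 of the 60, against 29.6% of all genes tested, a share near the background. For the VEGF system, 4 of 7 partners were at 1 TPM or more, led by Vegfb, a ligand of Flt1, at 18.6 TPM in pup 1 and 20.2 TPM in pup 2. The co-receptors Nrp1 and Nrp2 stood at 9.91 and 11.7 TPM and at 9.31 and 10.1 TPM. Vegfd, a ligand of Flt4 that was also listed under its older symbol Figf, had 0.98 TPM in pup 1 and 1.32 TPM in pup 2 and so missed that level in pup 1.

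In the angiopoietin list, 5 of 5 were at 1 TPM or more, led by Angptl4, a secreted inhibitor of lipoprotein lipase, at 26.9 TPM in pup 1 and 21.4 TPM in pup 2. Angptl2 had 19.4 and 20.4 TPM, and Ptprb, the phosphatase of Tek, had 2.36 and 2.67 TPM. The Tek ligands Angpt1, at 1.59 and 1.48 TPM, and Angpt2, at 1.59 and 1.67 TPM, named here beyond the 3 highest for their role, were below Tek. In the adrenomedullin list, 4 of 4 were at that level, led by Ramp1 at 13.1 and 12.8 TPM and Calcrl, the partner of Ramp2, at 11.3 and 11.3 TPM. Adm, the ligand, had 2.54 and 2.63 TPM.

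Of the vascular Notch genes, 6 of 8 were at 1 TPM or more, and the 3 highest were the ligand Jag1 at 4.81 TPM in pup 1 and 5.51 TPM in pup 2, and the targets Hey1 at 4.59 and 5.14 TPM and Heyl at 3.40 and 3.48 TPM. Of further endothelial transcription factors, 11 of 14 were at that level, led by Ets2 at 27.8 and 29.5 TPM, Klf4 at 19.0 and 22.8 TPM and Ets1 at 10.9 and 10.6 TPM, which other intestinal cells also express. Of other endothelial genes, 12 of 14 were at that level, led by the lymphatic chemokine Ccl21a at 57.2 and 59.0 TPM, Cd34 at 28.4 and 26.3 TPM and Eng at 25.9 and 27.4 TPM. Ccl21a has near-identical copies, so its level is uncertain. Of the pericyte genes, which mark the mural cells of capillaries, 7 of 8 were at that level, led by Kcnj8 at 25.9 and 27.1 TPM, Mcam, which endothelium also carries, at 24.4 and 26.3 TPM, and Rgs5 at 16.9 and 19.0 TPM.

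Robo4 and Esam lie near each other on chromosome 9, with a gap of 112962 bases and the protein-coding genes Robo3 and Msantd2 between them. Promoter windows (250 bases before to 50 after the start, RefSeq on GRCm38.p6) were matched for 21 of the 34 genes, giving 27 windows with a median GC content of 59.0%, against 52.7% over 32851 windows. On either strand, CCGGAA was in 2 of the 27 windows (7.41%) and in 14.9% of all windows, and AGGAAG in 8 of the 27 (29.6%) and in 35.4%. Both hold the GGAA core of ETS factors and differ in the base before it. ACAAAG, a SOX-type motif, was in 5 of the 27 (18.5%) and in 18.7%, and TATAAA in 4 of the 27 (14.8%) and in 13.6%. The shares of the 27 windows rest on few matches, and no difference from all windows was tested. A match describes letters in the window and not a bound site.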

How the data were processed

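RNA longer than 200 nucleotides was extracted with the mirVana kit, and the manual of a SMARTer Ultra Low kit is cited for library preparation, per the labels. The authors deposited a gene and a transcript table per library with expected counts (estimated reads, shared reads divided), TPM (scaled to effective length) and, for transcripts, the percent of the gene's TPM, per the file headers. The assembly was mm10 with GENCODE M4, per the deposited text file. No source used here gives the aligner, the quantifier or the strand setting, so overlapping genes on opposite strands may share reads. GENCODE M21 on GRCm38 gave names, biotypes and positions, matched for 42462 of 43346 Ensembl genes.

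Class contrasts are differences of median log2(TPM + 0.1), and the same scale was used for pairs, per pup. Rounded expected counts were compared between pups with TMM library sizes (edgeR 4.0.16, R 4.3.3) and exact 95% intervals (SciPy 1.17.1). The interval rule was also run on simulated counts of independent reads with total-count library sizes, so that run covers counting error only. Tables were handled with Python 3.11.15 and pandas 2.3.3. DESeq2 1.42.0 gave an alternative scaling. All 34 members were named, with the 3 highest of each further list and transcripts with a mean share of 20% or more. The members and lists were chosen with earlier results of these data known.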

Additional observations from a re-analysis of the deposited data

How the results depend on the processing

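All 34 genes were also at 0.5 TPM or more and 32 were at 2 TPM or more. With 2 pups, either pup lies within 1 SD of the mean, so leaving out a pup is no check of stability, and Lyve1 over Pecam1 was 0.086 in pup 2 alone and -0.019 in pup 1 alone. No gene was over 2-fold apart, and 9 had an interval without 1, likewise 9 with DESeq2 scaling and 11 with total counts, where Esam lost that call and Kdr, Sox7 and Mmrn1 gained it. Without length normalisation (counts scaled to library size only), capillary minus pan-endothelial turned to -0.35 and Vegfa over Vegfc to 0.047, while lymphatic minus pan-endothelial was -0.43, arterial minus venous -1.39, Tie1 over Tek 0.73, Sox18 over Sox17 1.88, Plvap over Cldn5 2.71 and Lyve1 over Pecam1 -0.27. With a pseudocount of 1 TPM, capillary minus pan-endothelial was 0.67, arterial minus venous -0.88, Kdr over Flt1 0.75, Kdr over Flt4 1.24, Tie1 over Tek 0.79, Efnb2 over Ephb4 -0.77, Aplnr over Apln 2.37 and Sox18 over Sox17 1.94. Capillary minus pan-endothelial, whose SD was very small, was 0.73 with a pseudocount of 0.01, 0.72 with posterior mean TPM and 0.14 with class means, which gave -1.17 for arterial minus venous. With coding transcripts only, chosen after seeing the data, the contrasts were 0.72, -1.10 and -0.044 and Kdr over Flt1 was 1.17. Posterior mean values gave 0.77 for Kdr over Flt1, 62.9% for the leading Vegfa transcript and 99.6% for the median coding share. By reads the leading Flt1 transcript held 67.5%. No paired analysis was possible because the libraries form 1 group. Low genes such as Erg, with 117 and 118 reads, are limited by counting.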
